A study of Mus musculus with 24 samples.

Results

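Myotubes from which the retinoblastoma gene Rb1 had been deleted were compared with wild-type myotubes across all genes measured. The series holds 24 arrays of mouse primary muscle cells, and the 12 arrays of the myotubes are described here. They come from 3 MCK-cre Rb-flox cultures, lettered J, K and L, and 3 wild-type (WT) cultures, lettered G, H and I, each hybridised to 1 MOE430A and 1 MOE430B array. The labels give 3 independent cell lines per genotype, so the p-values measure the spread between these lines. The other 12 arrays hold Rb-null and WT myoblasts, which are used only for the shared estimate of the spread and for 1 comparison near the end.

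Both groups of myotubes were derived from skeletal muscle by tissue dissociation and selective plating, and were harvested at day 6 in DMEM with 5% horse serum. The Cre recombinase of the MCK-cre Rb-flox cultures is under the muscle creatine kinase promoter, which becomes active as muscle cells differentiate, and it removes a floxed part of Rb1. Precursors that have not differentiated therefore keep the gene. The label of the WT cultures names neither the Cre transgene nor a floxed allele. A purity of 99 to 100% by desmin and MyoD staining is given for both groups, with fibroblasts named as the contaminating cell.

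The retinoblastoma protein binds E2F transcription factors and holds genes of DNA replication and mitosis silent. When myoblasts fuse into myotubes they leave the cell cycle for good, and Rb is known for its part in that exit and in the late steps of muscle gene expression. A contracting myotube builds sarcomeres from myosin, actin, troponin and titin, and releases calcium from the sarcoplasmic reticulum through the ryanodine receptor.

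Values are probe set signals on a linear scale of arbitrary units, and are given in the order J, K, L for the MCK-cre Rb-flox cultures and G, H, I for the WT cultures. Changes are MCK-cre Rb-flox minus WT, on the scale of log2(signal + offset), which understates the change of dim genes. Calls are genes with an adjusted p under 0.05 in a limma fit over all 14331 genes. Rb1 itself checked the labels. Its signal was 685, 802 and 589.8 in the MCK-cre Rb-flox cultures, against 3664, 3265 and 3314 in the WT cultures (4.33-fold, log2 change -2.11, SE 0.30, limma adjusted p = 0.000721). All 3 MCK-cre Rb-flox values lay below all 3 WT values. Where this probe set lies relative to the deleted part of Rb1 was not known, and a probe set outside that part would not report the deletion.

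Several technical measures moved with the genotype. On MOE430A all 3 MCK-cre Rb-flox arrays were washed on fluidics station 1 and all 3 WT arrays on fluidics station 2, so genotype and station cannot be told apart among these 6 arrays. The fluidics protocol recorded for the arrays was split in the same way. On MOE430B, J, K, H and I shared 1 fluidics run. The 3' to 5' signal ratio of beta-actin on MOE430A, a measure of RNA integrity, was 0.809, 0.965 and 0.863 in the MCK-cre Rb-flox cultures, against 0.593, 0.422 and 0.583 in the WT cultures (exact two-sided permutation p = 0.1, the smallest that 3 against 3 allows, and 0.4 adjusted over 8 tests). The same ratio of Gapdh did not move with it, at 0.829, 0.871 and 0.765 in the MCK-cre Rb-flox cultures, against 0.843, 0.867 and 0.793 in the WT cultures (exact two-sided permutation p = 0.8). The part of the beta-actin ratio in the results was not tested. Log2 values correlated across genes at r = 0.859 (J and K), 0.910 (J and L) and 0.852 (K and L) among MCK-cre Rb-flox cultures, and at 0.890 to 0.914 among WT cultures. Culture K lay at least 4-fold below both other MCK-cre Rb-flox cultures in 82 genes, against 12 genes for J and 16 for L. One culture of each genotype, J and G, had low Xist and high Eif2s3y, a gene of the Y chromosome, so this pattern was balanced between the genotypes.

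Skeletal muscle marker genes were bright in both groups. The summed signal of the 9 defining markers ran from 377318 to 435886 in the MCK-cre Rb-flox cultures and from 616925 to 847667 in the WT cultures, and 1 of the 9 was called lower. With the fluidics station as a term of the fit on MOE430A, 5 of the 9 were called lower (median change -1.87, against -0.79 without the term). Here and below that term could be estimated only through the myoblast cultures B and F, with limits given near the end. In whole cultures, fewer cells of a type and less RNA per cell cannot be told apart.

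More genes were higher than lower in MCK-cre Rb-flox myotubes. Of 14331 genes tested, 1002 (6.99%) were called higher and 641 (4.47%) were called lower. The change was at least 2-fold in 710 of the higher and 392 of the lower genes, and at least 4-fold in 167 and 84. Genes whose 3 MCK-cre Rb-flox values all lay above the 3 WT values numbered 2124 (14.8%), and those with all 3 below numbered 1873 (13.1%). Of the 1643 called genes, 1624 showed no overlap. The median change over all genes tested was 0.01. Leaving out 1 culture at a time left between 700 and 974 genes called higher and between 406 and 550 called lower. The lower count fell most without WT culture I (406) and without WT culture G (422).

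**Figure D1:**
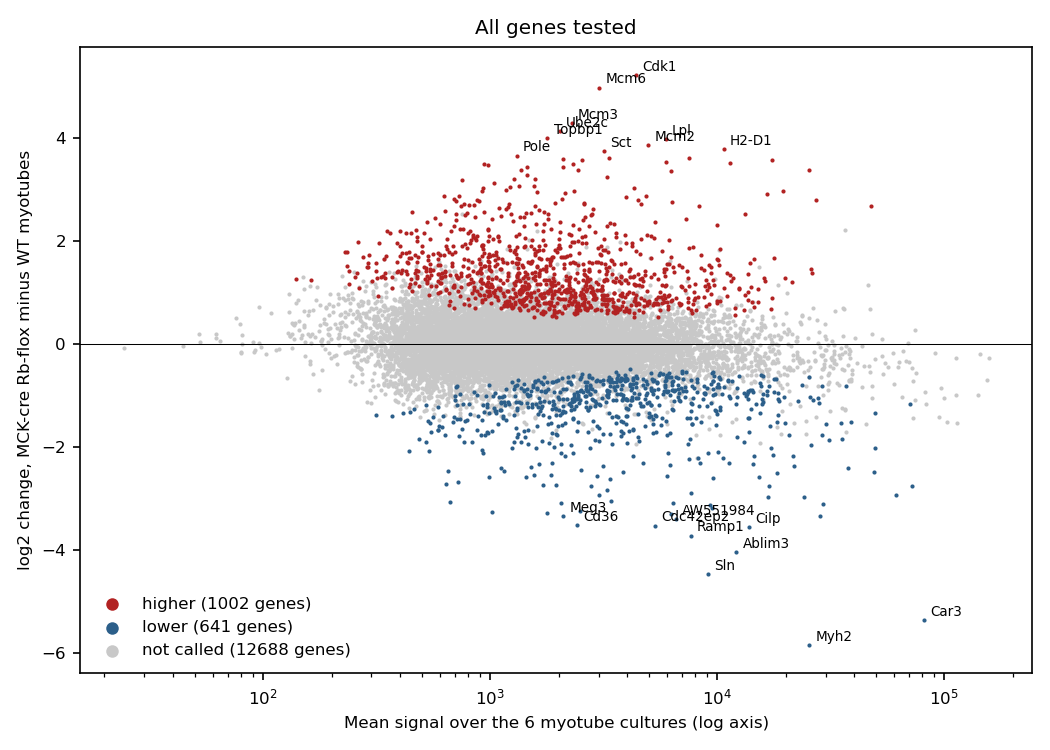
Change of every gene tested (log2, MCK-cre Rb-flox minus WT myotubes, vertical axis) against its mean signal over the 6 myotube cultures (horizontal log axis). Red points are the 1002 genes called higher, blue points the 641 called lower and grey points the genes not called, and the 10 largest rises and falls are named.

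The gene lists used below hold 223 of the genes called higher and 85 of those called lower. Across the lists of the cell cycle and the E2F family, 148 of 227 tested genes were called higher and 3 lower. Across the muscle lists, 12 of 201 were called higher and 41 lower. The share called over all genes was 6.99% higher and 4.47% lower. In the 7 cell cycle lists in which limma called none lower, 1 of 171 genes was lower at an unadjusted p under 0.05, and in the 6 muscle lists in which it called none higher, 1 of 113 was higher. Over all 17 lists with none called lower this count was 4 of 297 genes, and over the 12 with none called higher 1 of 136. Of all 14331 genes tested, 1525 were lower and 1962 higher at that unadjusted p. These lists were picked for having no call in that direction, so low counts were favoured by the choice.

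Of the 10 largest rises, 7 were genes of DNA replication and mitosis. Cdk1, the kinase that drives entry into mitosis, had a signal of 8857, 8849 and 8328 in the MCK-cre Rb-flox cultures, against 169, 134 and 36.1 in the WT cultures (37.3-fold, log2 change 5.22, SE 0.20, limma adjusted p = 8.64e-09). Mcm6, a subunit of the helicase that unwinds replication origins, gave 4218, 8863 and 4924 in the MCK-cre Rb-flox cultures, against 37.3, 72.2 and 53.4 in the WT cultures (31.7-fold, log2 change 4.98, SE 0.25, limma adjusted p = 9.98e-08). The WT values of both genes were at or near the offset, and the 3 MCK-cre Rb-flox values stood far above them. Another Mcm6 probe set on MOE430A rose by 2.82 (limma adjusted p = 0.00013 over all probe sets). The Mcm6 probe set on MOE430B changed by -0.63 (adjusted p = 0.53 in limma) and so did not show the rise. Mcm3, another helicase subunit, gave 4021, 5298 and 4085 in the MCK-cre Rb-flox cultures, against 159, 78.4 and 76.3 in the WT cultures (19.7-fold, log2 change 4.30, SE 0.24, limma adjusted p = 2.59e-07).

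The promoters of these 3 genes are shown because they have the largest changes among called cell cycle genes that hold an E2F or CHR motif in the RefSeq promoter table (GRCm38.p6). Each runs 5′ to 3′ on the gene's strand, from 250 bases before to 50 bases after the start site. Capitals mark the matches to the E2F motif (TTTCCCGC, TTTCGCGC, TTTGCCGC or TTTGGCGC) and to the cell cycle homology region, CHR (TTTGAA or TTCGAA), searched on both strands. Cdk1 lies on chr10:69352863-69353162, Mcm6 on chr1:128359656-128359955 and Mcm3 on chr1:20820263-20820562, all 3 on the minus strand.
Cdk1: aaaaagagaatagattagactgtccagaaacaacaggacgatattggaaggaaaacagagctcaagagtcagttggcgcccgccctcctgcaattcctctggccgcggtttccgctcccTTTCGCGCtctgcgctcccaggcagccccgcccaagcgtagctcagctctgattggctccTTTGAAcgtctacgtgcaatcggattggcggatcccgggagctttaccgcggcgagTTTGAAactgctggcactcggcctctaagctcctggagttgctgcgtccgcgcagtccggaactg
Mcm6: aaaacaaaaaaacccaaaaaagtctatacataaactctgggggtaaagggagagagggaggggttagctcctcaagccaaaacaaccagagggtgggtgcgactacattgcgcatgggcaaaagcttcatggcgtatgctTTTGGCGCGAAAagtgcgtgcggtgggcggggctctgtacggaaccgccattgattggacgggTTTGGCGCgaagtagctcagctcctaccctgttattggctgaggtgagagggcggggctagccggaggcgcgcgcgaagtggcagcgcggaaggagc
Mcm3: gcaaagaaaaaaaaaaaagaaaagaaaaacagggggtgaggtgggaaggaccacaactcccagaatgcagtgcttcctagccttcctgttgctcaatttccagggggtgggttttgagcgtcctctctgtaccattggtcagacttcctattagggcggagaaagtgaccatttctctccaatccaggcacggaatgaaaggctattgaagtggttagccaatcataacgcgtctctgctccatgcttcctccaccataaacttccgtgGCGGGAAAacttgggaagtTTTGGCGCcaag
In Cdk1 the E2F match begins at -131 and the CHR matches at -71 and -15, counted from the start site. In Mcm6 the E2F matches begin at -110, -106 and -47, and the first pair overlap. In Mcm3 they begin at 20 and 39.

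Ube2c, the ubiquitin-conjugating enzyme that works with the anaphase-promoting complex, gave 4042, 4558 and 3226 in the MCK-cre Rb-flox cultures, against 85.3, 86.2 and 124 in the WT cultures (17.7-fold, log2 change 4.14, SE 0.19, limma adjusted p = 6.61e-08). Topbp1, which activates the ATR checkpoint kinase and helps to start replication, gave 3885, 3027 and 3501 in the MCK-cre Rb-flox cultures, against 154, 67.7 and 69.8 in the WT cultures (16-fold, log2 change 4.00, SE 0.23, limma adjusted p = 3.27e-07). Its MOE430B probe set changed by 0.39. Mcm2, a helicase subunit, gave 8907, 9684 and 9552 in the MCK-cre Rb-flox cultures, against 528, 498 and 541 in the WT cultures (14.6-fold, log2 change 3.86, SE 0.15, limma adjusted p = 8.64e-09), and Pole, the catalytic subunit of DNA polymerase epsilon, gave 2761, 2010.1 and 2847 in the MCK-cre Rb-flox cultures, against 73.9, 102 and 60.2 in the WT cultures (12.7-fold, log2 change 3.66, SE 0.24, limma adjusted p = 9.20e-07). In all 4 genes the lowest MCK-cre Rb-flox value was many times the highest WT value.

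The other three large rises had other functions. Lpl, the lipoprotein lipase that releases fatty acids from circulating triglycerides, gave 8284, 14702 and 10857 in the MCK-cre Rb-flox cultures, against 749, 518 and 473 in the WT cultures (15.9-fold, log2 change 3.99, SE 0.36, limma adjusted p = 1.55e-05). Sct, which encodes the peptide hormone secretin, gave 6022, 10770.2 and 1577 in the MCK-cre Rb-flox cultures, against 249, 211 and 236 in the WT cultures (13.4-fold, log2 change 3.75, SE 0.48, limma adjusted p = 0.000293), and its 3 MCK-cre Rb-flox values varied widely. H2-D1, a classical MHC class I heavy chain, gave 24789.9, 2125 and 34810.3 in the MCK-cre Rb-flox cultures, against 849, 519 and 1040.2 in the WT cultures (13.8-fold, log2 change 3.79, SE 0.93, limma adjusted p = 0.0174). Culture K was the lowest of the 3, and the call was lost without culture J, L or H (log2 change 3.05 to 5.03 over the 6 fits, highest limma adjusted p = 0.0731). H2-D1 and its near-identical relatives can share probes, so its value is uncertain.

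The largest falls included fast myosin, calcium and lipid genes of muscle. Myh2, the type IIa fast myosin heavy chain, had a signal of 319, 1013 and 892 in the MCK-cre Rb-flox cultures, against 32847, 37209 and 79936 in the WT cultures (57.3-fold, log2 change -5.84, SE 0.60, limma adjusted p = 5.18e-05). Car3, carbonic anhydrase 3, an abundant enzyme of slow fibres, gave 7692, 2607 and 2534 in the MCK-cre Rb-flox cultures, against 145796, 177514 and 151517 in the WT cultures (41.0-fold, log2 change -5.36, SE 0.38, limma adjusted p = 1.79e-06). Its other MOE430A probe set changed by -5.62, and its MOE430B probe sets changed less, by -1.10 and -1.97. Sln, sarcolipin, which inhibits the calcium pump of the sarcoplasmic reticulum, gave 473, 155 and 1180.2 in the MCK-cre Rb-flox cultures, against 16970.3, 4259 and 31746 in the WT cultures (22-fold, log2 change -4.46, SE 0.63, limma adjusted p = 0.000611). The groups did not overlap in any of these genes, but the largest rises and falls were taken only from genes without overlap.

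Ablim3, an actin-binding LIM protein, gave 108, 2202 and 3156 in the MCK-cre Rb-flox cultures, against 18483, 21274 and 27490.3 in the WT cultures (16.4-fold, log2 change -4.03, SE 0.67, limma adjusted p = 0.00185), and culture J was far below K and L. Ramp1, a partner of the receptor for calcitonin gene-related peptide, gave 810.0, 645 and 1615 in the MCK-cre Rb-flox cultures, against 12001, 16896 and 13878 in the WT cultures (13.2-fold, log2 change -3.72, SE 0.37, limma adjusted p = 3.50e-05). Its other probe sets changed by -0.29 and -0.51. Cilp, a matrix protein first described in cartilage, gave 1500.2, 1253 and 1359.9 in the MCK-cre Rb-flox cultures, against 42712, 4490.3 and 31187 in the WT cultures (11.8-fold, log2 change -3.56, SE 0.60, limma adjusted p = 0.00204), and WT culture H was far below G and I.

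Cd36, a fatty acid transporter, gave 229.9, 152 and 448 in the MCK-cre Rb-flox cultures, against 3265, 6485 and 3819 in the WT cultures (11.5-fold, log2 change -3.52, SE 0.45, limma adjusted p = 0.000289). Cdc42ep2, an effector of the small GTPase CDC42, gave 695, 577 and 768 in the MCK-cre Rb-flox cultures, against 9634, 10103 and 10081 in the WT cultures (11.5-fold, log2 change -3.52, SE 0.41, limma adjusted p = 0.000154), with little spread within either group. Meg3, an imprinted long non-coding RNA expressed from the maternal allele, gave 109, 717 and 106 in the MCK-cre Rb-flox cultures, against 5993, 3702 and 1975 in the WT cultures (10.1-fold, log2 change -3.34, SE 0.67, limma adjusted p = 0.00624). Other Meg3 probe sets changed by -1.86 to -1.21 on MOE430A and by -1.29 to -0.02 on MOE430B. AW551984, for which no role is given here, gave 81.2, 1014 and 927 in the MCK-cre Rb-flox cultures, against 1816, 27842 and 7833 in the WT cultures (10.5-fold, log2 change -3.39, SE 0.93, limma adjusted p = 0.0315). Its WT values were widely spread, and the call was lost without culture J, H or I (log2 change -4.35 to -2.46 over the 6 fits, highest limma adjusted p = 0.124), and also in the fit of the 6 myotube cultures alone.

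**Figure D2:**
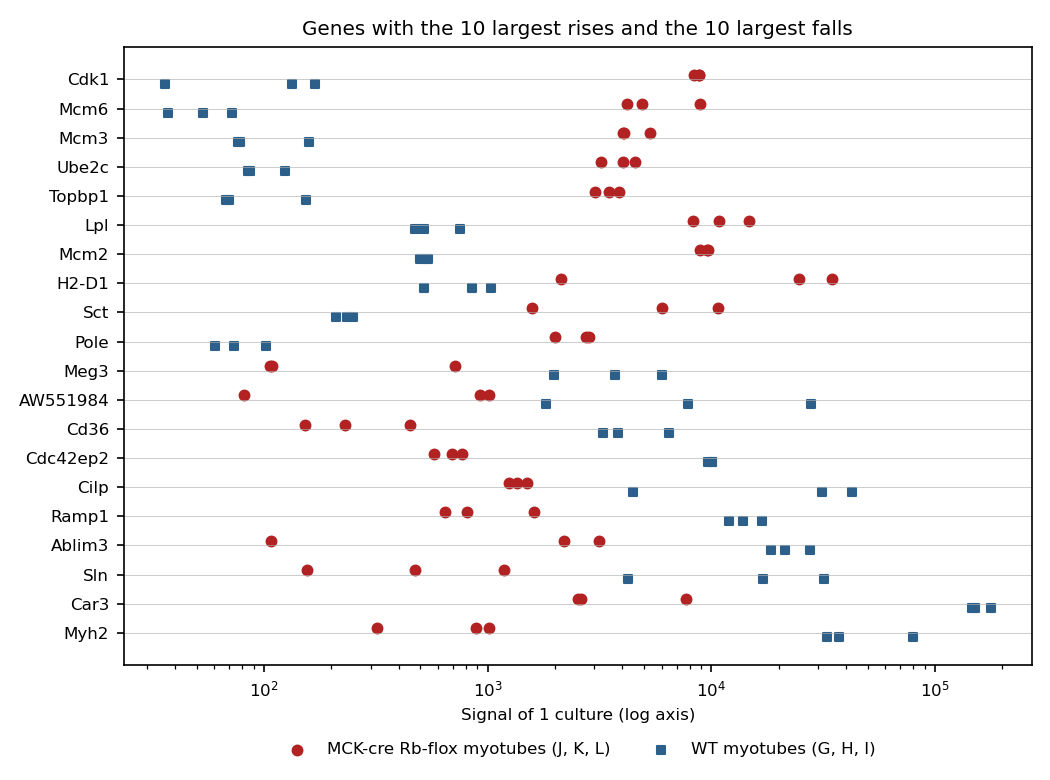
Signal of each culture (horizontal log axis) for the genes with the 10 largest rises (top) and 10 largest falls (bottom). Red circles are the MCK-cre Rb-flox cultures J, K and L and blue squares the WT cultures G, H and I. The colours do not overlap in any gene because only genes without overlap were taken.

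Rb partners and relatives moved in part. Of 19 genes of the pocket protein and E2F family tested, 5 were called higher and 1, Rb1, lower (median change 0.48, against 0.01 over all genes). E2f1, an activator of S phase genes, gave 2764, 2953 and 3083 in the MCK-cre Rb-flox cultures, against 281, 346 and 182 in the WT cultures (log2 change 2.96, SE 0.21, limma adjusted p = 1.87e-06). E2f7, an atypical repressor, gave 4232, 5979 and 4232 in the MCK-cre Rb-flox cultures, against 1433, 1300.3 and 801 in the WT cultures (log2 change 1.87, SE 0.22, limma adjusted p = 0.000166). Tfdp1, the DNA-binding partner of the E2F proteins, gave 6119, 12919 and 8012 in the MCK-cre Rb-flox cultures, against 2327, 2085 and 2727 in the WT cultures (log2 change 1.81, SE 0.23, limma adjusted p = 0.000301).

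Rbl1 encodes p107, a pocket protein related to Rb, and gave 2220.3, 1538 and 2186 in the MCK-cre Rb-flox cultures, against 480.0, 296 and 538 in the WT cultures (log2 change 1.90, SE 0.26, limma adjusted p = 0.000503). Further Rbl1 probe sets changed by 0.41 and 0.00. Rbl2, which encodes the third pocket protein p130, was not called, with 581, 437 and 660.0 in MCK-cre Rb-flox cultures and 1191, 1021 and 781 in WT cultures (log2 change -0.71, limma adjusted p = 0.104). Its groups did not overlap. None of the other E2F genes was called, with log2 changes of 0.51 for E2f2, 0.50 for E2f3, 0.25 for E2f4, 0.19 for E2f5, -0.01 for E2f6 and 0.96 for E2f8 (limma adjusted p of E2f8 = 0.0516). Tfdp2 (-0.01) and Lin52 (0.00), a subunit of the DREAM complex, were not called either.

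Cyclins split by type. Of 13 G1 and S phase cyclins and CDKs, 8 were called higher and 1 lower. Ccne1, cyclin E1, which activates CDK2 at the start of S phase, gave 7111, 5059 and 6644 in the MCK-cre Rb-flox cultures, against 504, 553 and 183 in the WT cultures (log2 change 3.62, SE 0.32, limma adjusted p = 1.28e-05). Ccne2 gave 1750.3, 1651 and 2044 in the MCK-cre Rb-flox cultures, against 239.7, 278 and 172 in the WT cultures (log2 change 2.44, SE 0.24, limma adjusted p = 3.53e-05). Cks1b and Cks2, small proteins that bind CDKs, rose by 2.41 and 2.47 on the log2 scale (SE 0.24 and 0.27). Ccnd3, the D-type cyclin that is retained in differentiated muscle, moved the other way, with 10651, 9144 and 10760.1 in the MCK-cre Rb-flox cultures, against 20156, 21247 and 22641 in the WT cultures (log2 change -1.06, SE 0.19, limma adjusted p = 0.00289). Ccnd1 was not called, with 2881, 5302 and 4470.0 in MCK-cre Rb-flox cultures and 7426, 3017 and 3797 in WT cultures (log2 change -0.10), and the groups overlapped.

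Among 8 CDK inhibitors, 2 were called higher (25%, against 6.99% over all genes) and none lower. Without K or H, 1 was called higher. Cdkn2a, which encodes p16Ink4a and p19Arf, gave 2178, 2379 and 1419 in the MCK-cre Rb-flox cultures, against 1042, 689.6 and 867 in the WT cultures (log2 change 1.08, SE 0.24, limma adjusted p = 0.0111), but was not called in the fit of the 6 myotube cultures alone. Cdkn2c, p18, gave 3373, 5268 and 3584 in the MCK-cre Rb-flox cultures, against 2057, 2042 and 2293 in the WT cultures (log2 change 0.87, SE 0.21, limma adjusted p = 0.0158), and its call was lost without culture K or H (log2 change 0.68 to 0.99 over the 6 fits, highest limma adjusted p = 0.0520). Cdkn1a, p21, the inhibitor induced as myoblasts differentiate, was bright in both groups and not called, with 55109.7, 64158 and 62933 in the MCK-cre Rb-flox cultures, against 99096, 80244 and 89057 in the WT cultures (log2 change -0.56, limma adjusted p = 0.121). Its groups did not overlap. With fluidics station and scan day as terms Cdkn1a was called lower (-1.16, limma adjusted p = 0.0393).

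Origin licensing and DNA synthesis genes rose together. Of 23 genes of origin licensing and the MCM helicase, 18 were called higher and none lower, with a median change of 1.93. The median over the list stood 1.85, 1.88 and 2.07 above the WT mean in J, K and L, so the 3 cultures were alike. Mcm4 gave 5566, 7501 and 4976 in the MCK-cre Rb-flox cultures, against 764, 258 and 627 in the WT cultures (log2 change 3.24, SE 0.28, limma adjusted p = 1.13e-05). Orc3, a subunit of the origin recognition complex, was not called (-0.06), nor was Gins3 (0.19).

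At the replication fork, 25 of 29 genes were called higher and none lower (median change 1.91). Pcna, the sliding clamp of the DNA polymerases, gave 28517, 34067 and 33654 in the MCK-cre Rb-flox cultures, against 3109.6, 1749 and 3089 in the WT cultures (log2 change 3.57, SE 0.22, limma adjusted p = 4.58e-07). Top2a, the topoisomerase that untangles replicated DNA, gave 4826, 4193 and 5398 in the MCK-cre Rb-flox cultures, against 241, 324 and 288 in the WT cultures (log2 change 3.57, SE 0.17, limma adjusted p = 7.57e-08). Both genes had WT values that lay close together and far below the lowest MCK-cre Rb-flox value. Ticrr, needed to load the helicase activator CDC45, was not called (-0.33).

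Of 15 genes that make nucleotides for DNA, 10 were called higher and none lower (median change 1.15). Rrm2, the regulated subunit of ribonucleotide reductase, gave 17342, 31112 and 15109 in the MCK-cre Rb-flox cultures, against 1794, 1548 and 1552 in the WT cultures (log2 change 3.53, SE 0.29, limma adjusted p = 7.81e-06). Tk1, thymidine kinase, gave 3162, 2507 and 2645 in the MCK-cre Rb-flox cultures, against 85.2, 268 and 90.5 in the WT cultures (log2 change 3.44, SE 0.26, limma adjusted p = 3.88e-06). Dck, deoxycytidine kinase, gave 1091, 1614 and 875 in the MCK-cre Rb-flox cultures, against 7.88, 2.01 and 167 in the WT cultures (log2 change 2.88, SE 0.38, limma adjusted p = 0.000367). Mthfd2, a mitochondrial folate enzyme, overlapped between the groups and was not called (1.0).

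Of 24 DNA repair and checkpoint genes, 14 were called higher and 1 lower. The higher count was 9 without culture L and 9 without culture I. Clspn, claspin, which carries the ATR signal to CHK1, gave 7174, 10546 and 6222 in the MCK-cre Rb-flox cultures, against 1264, 756 and 849 in the WT cultures (log2 change 2.81, SE 0.22, limma adjusted p = 5.50e-06). Brca1, a homologous recombination gene, gave 1544, 1199 and 1106 in the MCK-cre Rb-flox cultures, against 121, 141 and 136 in the WT cultures (log2 change 2.42, SE 0.22, limma adjusted p = 1.55e-05). Msh6, of mismatch repair, rose by 2.21 (SE 0.27) and Rad51ap1 by 2.19 (SE 0.35). Atrip, the partner of the ATR kinase, was the 1 gene called lower, with 731, 132 and 277 in the MCK-cre Rb-flox cultures, against 1377, 1353 and 2015 in the WT cultures (log2 change -1.72, SE 0.34, limma adjusted p = 0.00597). Parp1 (0.26) and Fancd2 (0.06) were not called.

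Of 27 genes of chromatin replication, DNA methylation and polycomb, 15 were called higher and none lower. Dnmt1, the maintenance DNA methyltransferase, gave 9762, 12299.9 and 11359.9 in the MCK-cre Rb-flox cultures, against 1365, 1551 and 1641 in the WT cultures (log2 change 2.77, SE 0.15, limma adjusted p = 2.64e-07). Its partner Uhrf1 gave 1591, 1412 and 1261 in the MCK-cre Rb-flox cultures, against 22.1, 137 and 183 in the WT cultures (log2 change 2.73, SE 0.28, limma adjusted p = 6.13e-05). Hmgb2, a chromatin protein of dividing cells, rose by 2.69 (SE 0.29), and Hells, a remodeller needed for DNA methylation, by 2.69 (SE 0.43). Rbbp4 (0.52) and Ehmt1 (-0.21) were not called.

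Mitotic genes rose as well. Of 24 mitotic kinases, cyclins and anaphase-promoting complex genes, 19 were called higher and none lower (median change 1.63). Pttg1, securin, which guards sister chromatid cohesion, gave 2409, 1925 and 1551 in the MCK-cre Rb-flox cultures, against 174, 62.3 and 92.0 in the WT cultures (log2 change 3.13, SE 0.26, limma adjusted p = 9.45e-06). Mad2l1, of the spindle checkpoint, gave 2729.6, 2394 and 2279 in the MCK-cre Rb-flox cultures, against 385, 205 and 42.3 in the WT cultures (log2 change 3.06, SE 0.32, limma adjusted p = 7.09e-05). Cdc25b, a phosphatase that activates CDK1, did not overlap between the groups but was not called (0.50, limma adjusted p = 0.119). Fzr1, the activator of the anaphase-promoting complex in G1, was not called (-0.27).

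Of 45 genes of the spindle, kinetochore, condensin and cytokinesis, 32 were called higher and none lower, and all 45 changes were positive (median 1.72). Anln, anillin of the cleavage furrow, gave 4684, 3896 and 3190.4 in the MCK-cre Rb-flox cultures, against 299.8, 239.8 and 183 in the WT cultures (log2 change 3.45, SE 0.21, limma adjusted p = 4.63e-07). Mki67, the Ki-67 marker of cycling cells, gave 2650.3, 2502 and 2605 in the MCK-cre Rb-flox cultures, against 128, 233 and 60.7 in the WT cultures (log2 change 3.38, SE 0.26, limma adjusted p = 3.91e-06). Birc5, survivin, gave 1799, 1124 and 1455 in the MCK-cre Rb-flox cultures, against 31.4, 54.8 and 40.6 in the WT cultures (log2 change 3.18, SE 0.22, limma adjusted p = 1.48e-06). Smc2, a condensin subunit, rose by 3.28 (SE 0.33). In each of these genes the lowest MCK-cre Rb-flox value was several times the highest WT value. Bub3 (0.60) and Spc24 (1.12) were not called.

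**Figure D3:**
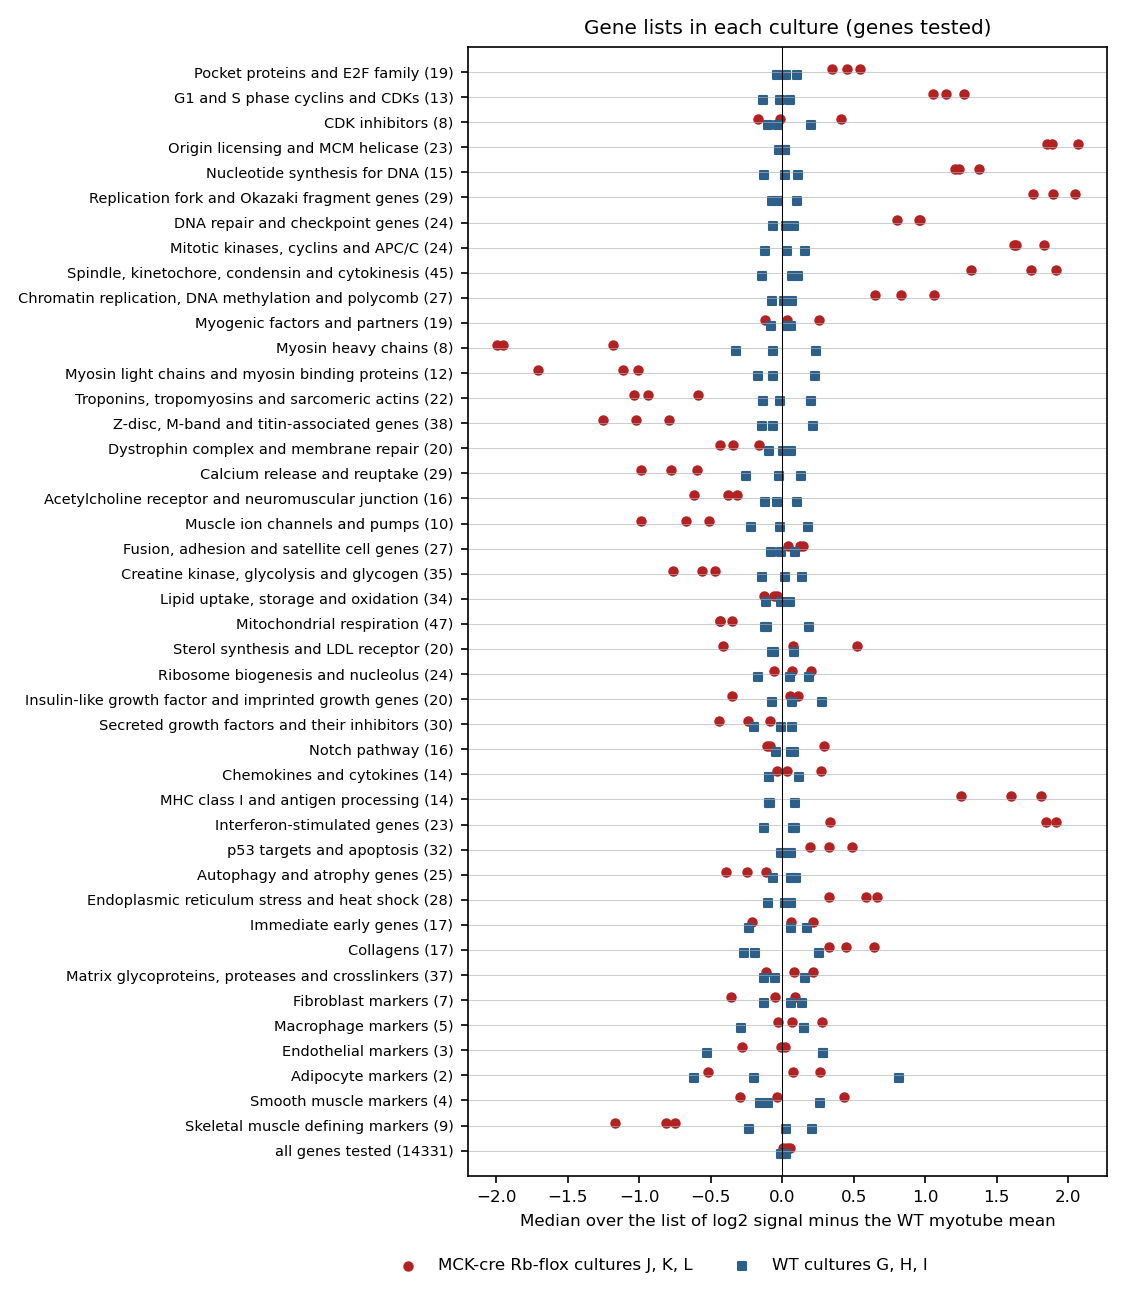
Median over each gene list of a culture's log2 signal minus the WT myotube mean of the gene (horizontal axis), for 43 lists and for all genes tested, with the number of genes tested in brackets. Red circles are the MCK-cre Rb-flox cultures J, K and L, blue squares the WT cultures G, H and I; all 3 MCK-cre Rb-flox cultures lie above 1 for licensing, fork and mitosis genes, and below -1 for the myosin heavy chains.

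The share of promoters that held the E2F motif was larger among genes called higher than among all genes tested. It was 8.37% for promoters of genes called higher, against 3.59% of the 14599 promoters of genes tested and 2.26% of the 32851 promoters of the RefSeq table. The share was 14.3% for genes at least 4-fold higher and 2.31% for genes called lower. Among cell cycle and E2F family genes it was 19.5% where the gene was called higher and 15.2% where it was not. Outside those lists 6.51% of promoters of genes called higher held it. The CHR motif was found in 19.1% of promoters of genes called higher and 14.2% of those of genes tested. Over all promoters of the RefSeq table the CHR share was 19.2%, near that of genes called higher. A match is a description of letters, and the promoter groups overlap.

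Myogenic transcription factors moved in both directions. Of 19 tested, 3 were called higher (15.8%) and 2 lower (10.5%), against 6.99% and 4.47% over all genes. The median change was -0.05. Without culture J, G or I, 1 was called higher and 1 lower, and the lower count was also 1 without H. Myod1, which commits cells to the muscle lineage, gave 14109.8, 15682 and 20452 in the MCK-cre Rb-flox cultures, against 18609, 16171 and 16567 in the WT cultures (log2 change -0.05, limma adjusted p = 0.929), and the groups overlapped. Myog, myogenin, which drives differentiation, gave 30171, 8523 and 47126 in the MCK-cre Rb-flox cultures, against 41945, 33200.5 and 45303 in the WT cultures and was not called (-0.79), and culture K was the lowest. Myf6, the MRF4 factor of late differentiation, gave 111, 722 and 89.3 in the MCK-cre Rb-flox cultures, against 1364, 1244 and 3173 in the WT cultures (log2 change -2.41, SE 0.52, limma adjusted p = 0.00875).

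Mef2c, a MADS-box factor that acts with the myogenic factors, gave 12729, 10099 and 16869.7 in the MCK-cre Rb-flox cultures, against 37264, 57292 and 40124 in the WT cultures (log2 change -1.76, SE 0.47, limma adjusted p = 0.0291). Its call was lost without culture J, K, G, H or I (log2 change -1.95 to -1.57 over the 6 fits, highest limma adjusted p = 0.1). Other Mef2c probe sets, all on MOE430A, changed by -2.34 to -1.78. Tcf12, an E protein that pairs with the myogenic factors, gave 5829, 5231 and 7753 in the MCK-cre Rb-flox cultures, against 2836, 2554 and 2819 in the WT cultures (log2 change 1.14, SE 0.22, limma adjusted p = 0.00461). Id2, which sequesters E proteins, gave 584, 1378 and 193 in the MCK-cre Rb-flox cultures, against 118, 132 and 143 in the WT cultures (log2 change 1.43, SE 0.41, limma adjusted p = 0.0406), and its call was lost without culture J, K, G, H or I (log2 change 0.88 to 1.99 over the 6 fits, highest limma adjusted p = 0.112).

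Myosin heavy chains fell unevenly. Of 8 tested, 4 were called lower and none higher (median change -1.75). Myh8, the perinatal form, gave 2812, 3093 and 5386 in the MCK-cre Rb-flox cultures, against 28229.8, 38342 and 22506 in the WT cultures (log2 change -2.96, SE 0.40, limma adjusted p = 0.000487). Myh4, the fast IIb form, gave 290.4, 297 and 197 in the MCK-cre Rb-flox cultures, against 8288, 1302 and 1297 in the WT cultures (log2 change -2.73, SE 0.55, limma adjusted p = 0.00605). Myh7, the slow form, gave 7134, 4389 and 21088 in the MCK-cre Rb-flox cultures, against 18562, 134641 and 41244 in the WT cultures (log2 change -2.41, SE 0.70, limma adjusted p = 0.0412). Its groups overlapped and the call was lost without culture J, K, H or I (log2 change -3.07 to -1.65 over the 6 fits, highest limma adjusted p = 0.155). Myh3, the embryonic form, gave 59058, 40722 and 42614 in the MCK-cre Rb-flox cultures, against 93748, 129381 and 81306 in the WT cultures and was not called (-1.09, limma adjusted p = 0.283), although its groups did not overlap. Myh1, the fast IIx form, was not called either (-0.80).

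Other thick filament genes gave fewer calls. Of 12 myosin light chains and myosin binding proteins, 2 were called lower (16.7%, against 4.47% over all genes) and none higher. Of the changes, 11 were negative (median -1.26). The lower count was 1 without K, G or H. Mybpc1, slow myosin binding protein C, gave 12576, 30139 and 14809 in the MCK-cre Rb-flox cultures, against 161365, 124349 and 89579 in the WT cultures (log2 change -2.76, SE 0.59, limma adjusted p = 0.00879). Mybph, myosin binding protein H, gave 22791, 2655 and 37174 in the MCK-cre Rb-flox cultures, against 103595, 109796 and 91460.2 in the WT cultures (log2 change -2.93, SE 0.81, limma adjusted p = 0.0328), with culture K far below J and L, and its call was lost without culture K, G, H or I (log2 change -3.67 to -1.79 over the 6 fits, highest limma adjusted p = 0.0839). Myl4, the embryonic light chain, gave 61988, 49569 and 63097 in the MCK-cre Rb-flox cultures, against 143941, 204397 and 161887 in the WT cultures and was not called (-1.54, limma adjusted p = 0.0814). Its groups did not overlap.

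The promoter of Mybph is shown because this gene has the largest change among the called muscle genes whose promoter holds an E-box of the kind that myogenic factors bind (CAGCTG or CACCTG, searched on both strands), marked in capitals. It lies on chr1:134193198-134193497 of GRCm38.p6, plus strand, from RefSeq.
Mybph: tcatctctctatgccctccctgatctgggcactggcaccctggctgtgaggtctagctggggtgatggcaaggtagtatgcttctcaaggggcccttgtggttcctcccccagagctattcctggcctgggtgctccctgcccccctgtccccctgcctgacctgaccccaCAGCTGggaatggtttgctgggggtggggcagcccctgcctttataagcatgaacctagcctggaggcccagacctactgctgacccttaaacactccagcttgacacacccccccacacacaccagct
The match begins at -79. Such an E-box was found in 34.4% of promoters of genes called lower and 51.7% of those at least 4-fold lower, against 31.8% of promoters of all genes tested. Among muscle genes the share was 43.6% where the gene was called lower and 38.2% where it was not.

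Most thin filament genes had negative changes, but few were called. Of 22 troponins, tropomyosins and sarcomeric actins, 2 were called higher and 2 lower, near the shares over all genes, and 17 changes were negative (median -0.95). The lower count was 1 without culture L, G, H or I. With the fluidics station as a term, 8 of the 20 measured on MOE430A were called lower, against 1 without it. Lmod3, leiomodin 3, which nucleates sarcomeric actin, gave 19719, 15372 and 23700.1 in the MCK-cre Rb-flox cultures, against 89251, 74798 and 72882 in the WT cultures (log2 change -2.02, SE 0.39, limma adjusted p = 0.00486). Tpm3 and Tpm4, tropomyosins that include the forms of non-muscle cells, were called higher by 1.29 and 1.36 (SE 0.21 and 0.30), the first not as the mean of its probe sets and the second not in the fit of the 6 myotube cultures alone. Acta1, skeletal actin, was not called, with 139629, 107216 and 107434 in the MCK-cre Rb-flox cultures, against 191727, 218322 and 160485 in the WT cultures (-0.69), although its groups did not overlap. Tnni1, slow troponin I, was not called (-1.52, limma adjusted p = 0.0718) although its groups did not overlap.

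Of 38 Z-disc, M-band and titin-associated genes, 12 were called lower and none higher, and 35 changes were negative (median -0.86). Without WT culture H, 7 were called lower. Tcap, telethonin, which caps the end of titin in the Z-disc, gave 1612, 1507 and 2022 in the MCK-cre Rb-flox cultures, against 16207, 24517 and 11179 in the WT cultures (log2 change -3.18, SE 0.35, limma adjusted p = 8.42e-05). Fhl1, a LIM protein of the sarcomere, gave 1440.2, 11521 and 10204 in the MCK-cre Rb-flox cultures, against 36837, 65760.4 and 49535 in the WT cultures (log2 change -3.11, SE 0.61, limma adjusted p = 0.00522), with culture J far below K and L and a change of -0.79 in its MOE430B probe set. Myot, myotilin, gave 886, 1116 and 4332 in the MCK-cre Rb-flox cultures, against 11669, 15466 and 12494 in the WT cultures (log2 change -2.89, SE 0.45, limma adjusted p = 0.00129). Myoz2, which anchors calcineurin at the Z-disc, gave 8069, 2802 and 2457 in the MCK-cre Rb-flox cultures, against 21424, 48869 and 18028 in the WT cultures (log2 change -2.76, SE 0.50, limma adjusted p = 0.00334). Des, desmin, the intermediate filament used to score purity, was not called (-0.58).

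**Figure D4:**
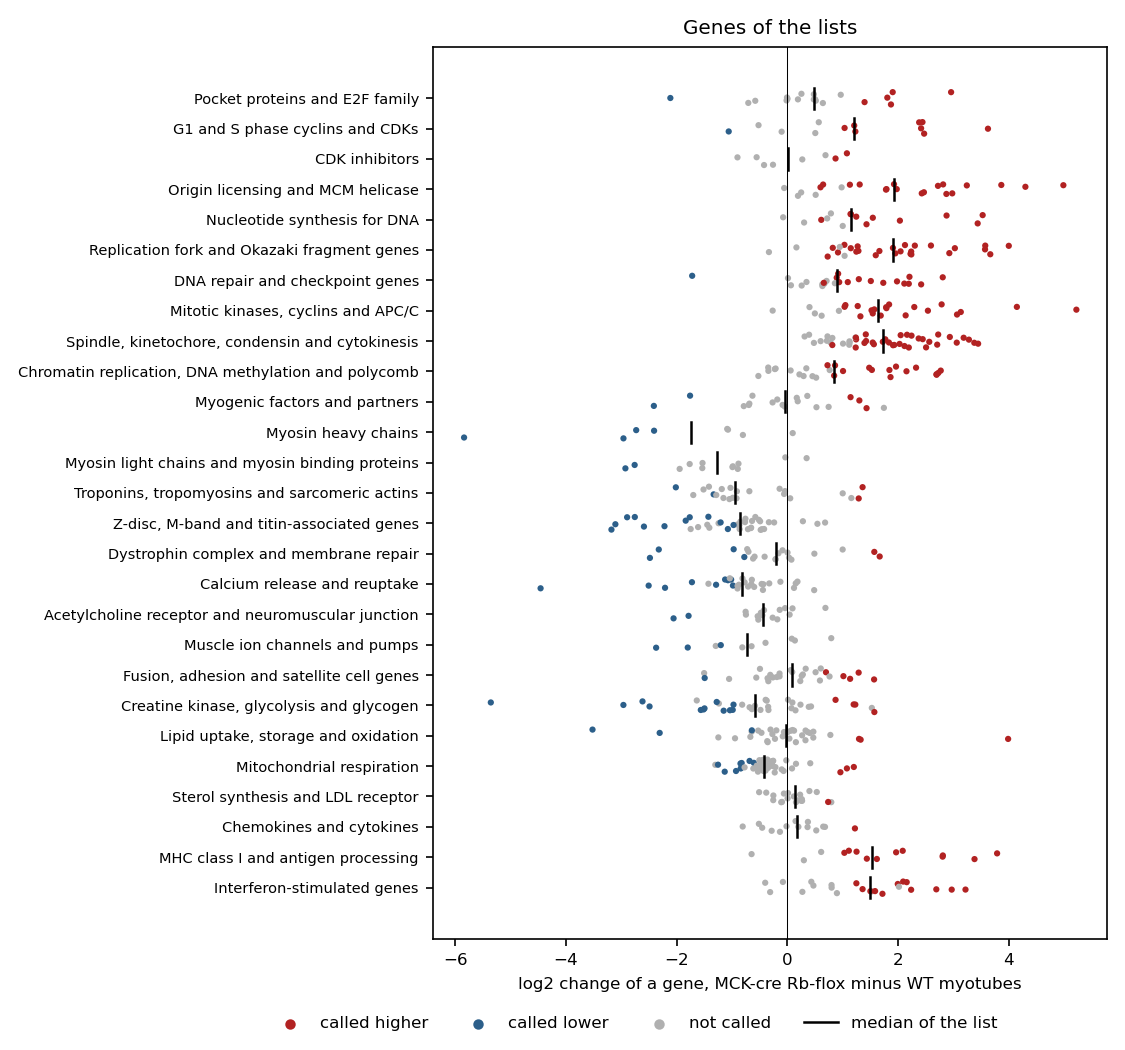
Change of each tested gene (log2, MCK-cre Rb-flox minus WT myotubes, horizontal axis) in lists of the cell cycle, muscle, metabolism and immunity. Red points were called higher, blue points lower and grey points were not called, and the black bar is the median of the list; the replication and mitosis lists hold no blue point and the myosin lists no red one.

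Several calcium handling genes were lower. Of 29 tested, 9 were called lower and none higher (median -0.81). Besides Sln, Casq1, the fast calsequestrin that stores calcium, gave 7644, 1662 and 9371 in the MCK-cre Rb-flox cultures, against 22749.7, 46178 and 22756 in the WT cultures (log2 change -2.51, SE 0.49, limma adjusted p = 0.00512). Cacna1s, the voltage sensor of the T-tubule, gave 3374, 1467 and 4107 in the MCK-cre Rb-flox cultures, against 10883, 17287 and 12119 in the WT cultures (log2 change -2.21, SE 0.49, limma adjusted p = 0.00997). Camk2a, a calcium-dependent kinase measured on MOE430B, gave 1693, 2281 and 2887 in the MCK-cre Rb-flox cultures, against 11396, 6678 and 6389.8 in the WT cultures (log2 change -1.72, SE 0.36, limma adjusted p = 0.00707). Ryr1, the calcium release channel, overlapped between the groups and was not called (-0.43), and neither was Atp2a1, the fast calcium pump (-1.43, limma adjusted p = 0.0829).

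At the neuromuscular junction 2 of 16 genes were called lower (12.5%, against 4.47% over all genes) and none higher. Ache, acetylcholinesterase, gave 298, 140.4 and 381 in the MCK-cre Rb-flox cultures, against 2119.5, 913 and 1683 in the WT cultures (log2 change -2.06, SE 0.35, limma adjusted p = 0.00233). Erbb2, a neuregulin receptor, gave 1597, 1104 and 2305 in the MCK-cre Rb-flox cultures, against 5631, 6764 and 5219 in the WT cultures (log2 change -1.78, SE 0.27, limma adjusted p = 0.000877). Chrna1, the alpha subunit of the acetylcholine receptor, was bright in both groups and not called (-0.45). Of 10 muscle ion channels and pumps, 3 were called lower (30%) and none higher. Fxyd1, phospholemman, which regulates the sodium pump, gave 1177, 517 and 1074 in the MCK-cre Rb-flox cultures, against 4209, 7851 and 3945 in the WT cultures (log2 change -2.37, SE 0.36, limma adjusted p = 0.000945), and Slc8a3, a sodium-calcium exchanger, fell by 1.80 (SE 0.40), but was not called in the fit of the 6 myotube cultures alone or with the fluidics station as a term (limma adjusted p = 0.0616 and 0.0693).

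Of 20 genes of the dystrophin complex and membrane repair, 4 were called lower (20%) and 2 higher (10%), against 4.47% and 6.99% over all genes. Without WT culture G, 2 were called lower, and without K, H or I 1 was called higher. Capn3, the muscle calpain, gave 1215, 611 and 1439 in the MCK-cre Rb-flox cultures, against 5682, 8959 and 5052 in the WT cultures (log2 change -2.48, SE 0.35, limma adjusted p = 0.000630). Cav3, caveolin 3 of the sarcolemma, gave 6330.2, 3289 and 4793 in the MCK-cre Rb-flox cultures, against 21717, 24341 and 25328 in the WT cultures (log2 change -2.32, SE 0.38, limma adjusted p = 0.00164). Sntb2, a syntrophin, moved upwards, with 763, 475 and 973 in the MCK-cre Rb-flox cultures, against 179.8, 94.6 and 137 in the WT cultures (log2 change 1.67, SE 0.29, limma adjusted p = 0.00275). Dag1, dystroglycan, was not called (-0.21).

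Of 27 fusion, adhesion and satellite cell genes, 5 were called higher (18.5%) and 1 lower (3.7%), against 6.99% and 4.47% over all genes. Leaving out 1 culture left between 1 and 4 called higher (1 without H, 3 without J, L or I). Cdh15, M-cadherin of myoblasts, gave 2118, 3205 and 4011 in the MCK-cre Rb-flox cultures, against 8062, 9294 and 8855 in the WT cultures (log2 change -1.49, SE 0.20, limma adjusted p = 0.000466). Myof, myoferlin, a membrane fusion protein of the ferlin family, gave 4765, 6907 and 7791 in the MCK-cre Rb-flox cultures, against 2732, 2715 and 3047 in the WT cultures (log2 change 1.13, SE 0.23, limma adjusted p = 0.00617). With no filter on dim probe sets another Myof probe set was chosen, which changed by -0.01. Mymk, myomaker, which is needed for myoblast fusion, was not called, with 38160.5, 22814 and 37598 in the MCK-cre Rb-flox cultures, against 50029, 36384 and 50561 in the WT cultures (-0.50). With the fluidics station as a term it was called lower (-2.05, limma adjusted p = 0.0155).

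Energy genes moved in both directions. Of 35 genes of creatine kinase, glycolysis and glycogen, 12 were called lower and 4 higher, and without WT culture H 6 were called lower. Ckm, the muscle creatine kinase whose promoter drives the Cre, gave 6607, 4897 and 4299.9 in the MCK-cre Rb-flox cultures, against 52372, 47676 and 28162 in the WT cultures (log2 change -2.96, SE 0.48, limma adjusted p = 0.00165), and its MOE430B probe set changed by -0.23. Ampd1, the muscle AMP deaminase, gave 1623, 536 and 470.0 in the MCK-cre Rb-flox cultures, against 5775, 7207 and 4569 in the WT cultures (log2 change -2.62, SE 0.35, limma adjusted p = 0.000431). Mb, myoglobin, gave 8360.2, 10884 and 31284 in the MCK-cre Rb-flox cultures, against 94318, 88465 and 62160.5 in the WT cultures (log2 change -2.49, SE 0.67, limma adjusted p = 0.0290), and its call was lost without culture J, K, G, H or I (log2 change -3.06 to -2.11 over the 6 fits, highest limma adjusted p = 0.107). A second Mb probe set changed by 0.25. Slc2a1, the widely expressed glucose transporter GLUT1, gave 4285, 2446 and 4097 in the MCK-cre Rb-flox cultures, against 1049, 1081 and 1153 in the WT cultures (log2 change 1.57, SE 0.25, limma adjusted p = 0.00147), and Pfkp, the platelet phosphofructokinase, rose by 1.2 (SE 0.25). Ldha (-0.37) and Pkm (-0.39) were not called.

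Of 34 genes of lipid uptake, storage and oxidation, 3 were called higher and 3 lower (8.82% each, against 6.99% and 4.47% over all genes, median -0.03). Besides Lpl and Cd36, Plin2, a coat protein of lipid droplets, gave 6210.2, 5942 and 7778 in the MCK-cre Rb-flox cultures, against 3013, 1752 and 3362 in the WT cultures (log2 change 1.29, SE 0.25, limma adjusted p = 0.00447). Fabp3, the fatty acid binding protein of muscle, gave 2021, 771 and 1558 in the MCK-cre Rb-flox cultures, against 3872, 11733 and 8225 in the WT cultures (log2 change -2.31, SE 0.43, limma adjusted p = 0.00410), and its MOE430B probe set changed by -0.06. Of 47 genes of mitochondrial respiration, 8 were called lower (17.0%) and 3 higher (6.38%), and 41 changes were negative (median -0.42). The lower count was 5 without culture J, G or H, and the higher count 1 without G. Ndufb5, a subunit of complex I, gave 4494, 4090.2 and 5635 in the MCK-cre Rb-flox cultures, against 8834, 12324 and 10490.0 in the WT cultures (log2 change -1.13, SE 0.17, limma adjusted p = 0.000967). Cox6a1, a subunit of cytochrome oxidase, was called higher (1.2, SE 0.21), and Cox6c, another subunit, was not called (-0.26). Ppargc1a, a coactivator of mitochondrial genes, was not called (0.47).

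Genes of cell growth outside the cell cycle moved little. Of 24 genes of ribosome biogenesis 1 was called higher and none lower (median 0.03), and of 20 genes of sterol synthesis 1 was called higher and none lower (median 0.14). These shares lie near or below those over all genes, and both genes lost their call without J, K, G or H. Among 20 insulin-like growth factor and imprinted genes, 1 was called higher (5%) and 2 lower (10%), against 6.99% and 4.47% over all genes. The lower count was 1 without J or I, and none was called higher without I. Igf2, an autocrine growth factor of myotubes, gave 69107, 39780.1 and 53118 in the MCK-cre Rb-flox cultures, against 67146, 70784 and 75836 in the WT cultures and was not called (-0.43). With the fluidics station as a term it was called lower (-1.54, limma adjusted p = 0.0140). Besides Meg3, Igfbp3 was called lower, with 41.3, 34.4 and 280.5 in the MCK-cre Rb-flox cultures, against 1431, 634 and 1483 in the WT cultures (log2 change -2.46, SE 0.57, limma adjusted p = 0.0131), and its call was lost without culture J or I (log2 change -2.89 to -2.23 over the 6 fits, highest limma adjusted p = 0.0518).

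Of 30 secreted growth factors and their inhibitors, 2 were called higher (6.67%) and 3 lower (10%), against 6.99% and 4.47% over all genes. The higher count was 1 without J, L, G or H, and none was called higher without I. Tgfb3 gave 4250.0, 8754 and 6901 in the MCK-cre Rb-flox cultures, against 19985, 23093 and 20026 in the WT cultures (log2 change -1.70, SE 0.37, limma adjusted p = 0.00988). Ccn2, a matricellular protein induced by TGF-beta, gave 196, 579.6 and 796 in the MCK-cre Rb-flox cultures, against 5460.5, 1577 and 2573 in the WT cultures (log2 change -2.30, SE 0.51, limma adjusted p = 0.0106), whereas its relative Ccn1 was called higher (1.05, SE 0.29). The Ccn1 call was lost without culture J, K, H or I (log2 change 0.78 to 1.27 over the 6 fits, highest limma adjusted p = 0.106). Fst, follistatin, an inhibitor of myostatin, was not called (-1.15). In the Notch pathway 2 of 16 genes were called higher and 2 lower (12.5% each, against 6.99% and 4.47% over all genes). None was called lower without L or H, and 1 without J, K, G or I. Notch2 gave 1656, 1469 and 1665 in the MCK-cre Rb-flox cultures, against 763, 377 and 705 in the WT cultures (log2 change 1.25, SE 0.25, limma adjusted p = 0.00562), and Rbpj, the transcription factor of the pathway, gave 4913, 4257 and 4582 in the MCK-cre Rb-flox cultures, against 2706, 2662 and 2995 in the WT cultures (log2 change 0.69, SE 0.14, limma adjusted p = 0.00654). As the mean of their probe sets neither was called. The target gene Hes1 was called lower (-0.81, SE 0.22), and its call was lost without culture K, L or H (log2 change -0.96 to -0.62 over the 6 fits, highest limma adjusted p = 0.129).

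Immune genes that interferon induces were higher in MCK-cre Rb-flox myotubes, with culture K apart. Of 14 genes of MHC class I and antigen processing, 11 were called higher and none lower (median 1.53). B2m, the light chain of MHC class I, gave 64430.5, 19697 and 60338 in the MCK-cre Rb-flox cultures, against 7196, 4188 and 7049 in the WT cultures (log2 change 2.80, SE 0.41, limma adjusted p = 0.000798). H2-K1, another class I heavy chain, gave 61847, 10038 and 68910.0 in the MCK-cre Rb-flox cultures, against 5406, 4670.4 and 1320.3 in the WT cultures (log2 change 3.38, SE 0.72, limma adjusted p = 0.00853), and as for H2-D1 its probes may be shared with relatives. With the fluidics station as a term neither H2-K1 (limma adjusted p = 0.107) nor H2-D1 (limma adjusted p = 0.163) was called. Psmb8, an immunoproteasome subunit, gave 2028, 686 and 2204 in the MCK-cre Rb-flox cultures, against 64.4, 157 and 84.3 in the WT cultures (log2 change 2.81, SE 0.71, limma adjusted p = 0.0208), and its call was lost without culture J, L, G or I (log2 change 2.54 to 3.29 over the 6 fits, highest limma adjusted p = 0.0738). In each of the 3 genes K was the lowest MCK-cre Rb-flox culture and still above the WT cultures. The number called higher was 6 without J, 7 without L and 7 without I. Psmb10, a further immunoproteasome subunit, was not called, and its 3 MCK-cre Rb-flox values lay below the WT values (-0.65).

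Of 23 interferon-stimulated genes, 12 were called higher and none lower (median 1.5). Of the 20 measured on MOE430A, 9 were called higher, 7 with the fluidics station as a term and 1 with station and scan day. The list median stood 1.84 above the WT mean in J, 0.33 in K and 1.91 in L. Ifi35 gave 4243, 1591 and 3098 in the MCK-cre Rb-flox cultures, against 233, 198 and 124 in the WT cultures (log2 change 3.22, SE 0.36, limma adjusted p = 9.01e-05). Ifi27, measured on MOE430B, gave 104522, 24852 and 125555 in the MCK-cre Rb-flox cultures, against 10080.2, 9936 and 11556 in the WT cultures (log2 change 2.69, SE 0.45, limma adjusted p = 0.00194). Ifitm3, a membrane protein that restricts virus entry, gave 51673, 11717 and 41306 in the MCK-cre Rb-flox cultures, against 7090.2, 1692 and 3906 in the WT cultures (log2 change 2.97, SE 0.54, limma adjusted p = 0.00329). Rtp4 gave 4259, 151 and 3647 in the MCK-cre Rb-flox cultures, against 192, 400.4 and 283 in the WT cultures, so that K lay below all WT cultures, and was not called (2.02). Without K, 15 genes were called higher with a median of 1.89, and without J, L, H or I between 6 and 7 were. Of the 82 genes in which K lay at least 4-fold below J and L, 7 were among these 37 genes of both lists. A further 6 were among the 201 genes tested of the muscle lists, and 14331 genes were tested in all. Irf1, an interferon-induced transcription factor, was not called (0.27).

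**Figure D5:**
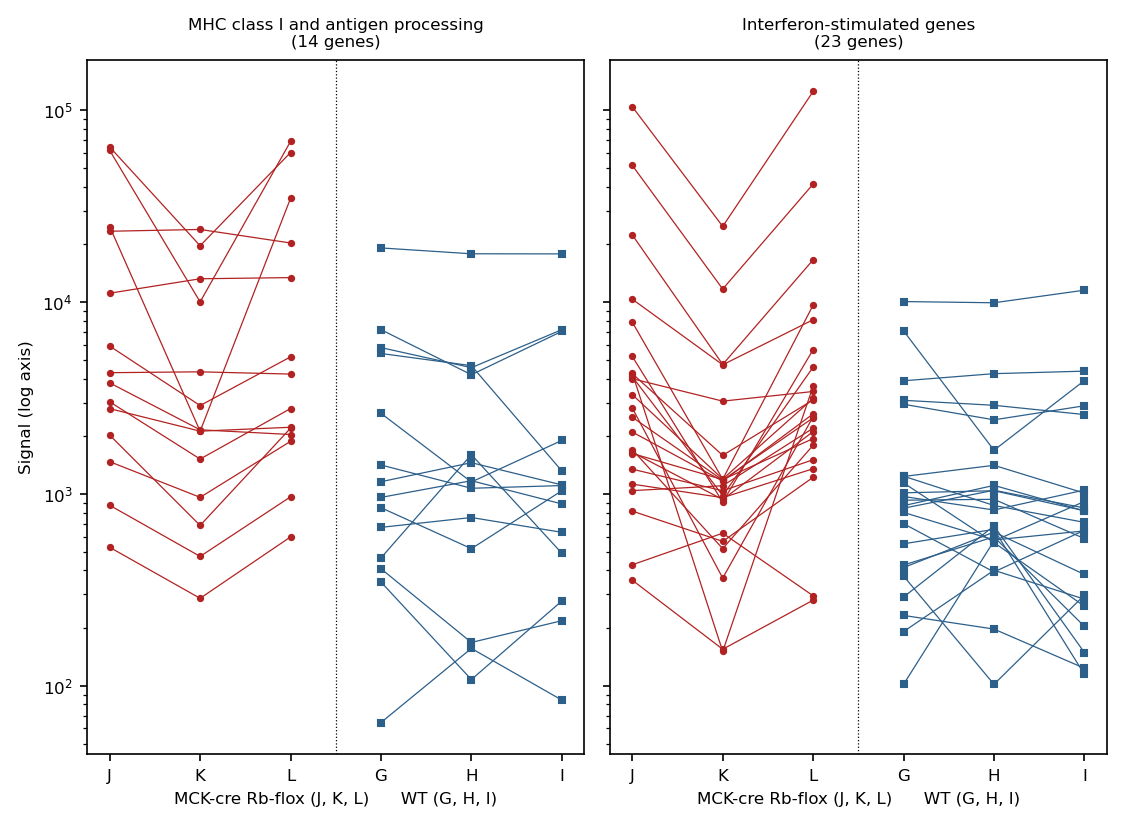
Signal of each tested gene (1 line per gene and genotype, vertical log axis) by culture, for 14 genes of MHC class I and antigen processing (left) and 23 interferon-stimulated genes (right). Red circles are the MCK-cre Rb-flox cultures J, K and L and blue squares the WT cultures G, H and I; most red lines dip at culture K.

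Of 14 cytokine genes 1 was called higher and none lower, a share like that over all genes, and the higher count was 0 without L, H or I and 2 without G. Csf1, the growth factor of macrophages, gave 4378, 5237 and 5625 in the MCK-cre Rb-flox cultures, against 3694, 1614 and 1519 in the WT cultures (log2 change 1.22, SE 0.29, limma adjusted p = 0.0161), and its call was lost without culture L, H or I (log2 change 1.0 to 1.61 over the 6 fits, highest limma adjusted p = 0.0715). Cxcl1 was not called (-0.02). The markers of macrophages themselves were dim and not called, as given below.

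Stress genes moved in part. Of 32 p53 targets and apoptosis genes, 8 were called higher (25%) and 1 lower (3.1%), against 6.99% and 4.47% over all genes (median 0.27). Apaf1, the core of the apoptosome and a known E2F target, gave 1668, 2292 and 1863 in the MCK-cre Rb-flox cultures, against 390.1, 624 and 676 in the WT cultures (log2 change 1.59, SE 0.23, limma adjusted p = 0.000728). Gadd45g, a stress gene also active in differentiation, gave 5029, 4426 and 4466 in the MCK-cre Rb-flox cultures, against 1051, 1563 and 1925 in the WT cultures (log2 change 1.57, SE 0.25, limma adjusted p = 0.00145). Trp53inp1, a p53-induced nuclear protein, rose by 1.38 (SE 0.26). Ccng2, cyclin G2, an inhibitor of cycle progression, gave 1430.2, 1781 and 1369 in the MCK-cre Rb-flox cultures, against 3068, 4481 and 2777 in the WT cultures (log2 change -1.09, SE 0.21, limma adjusted p = 0.00479). Mdm2, the p53 ubiquitin ligase, was not called (0.74), like Cdkn1a above.

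Of 28 genes of endoplasmic reticulum stress and heat shock, 6 were called higher (21.4%) and 2 lower (7.14%), with a median of 0.50. The shares over all genes were 6.99% and 4.47%. None was called lower without J or I, and 1 without K, L or G. Ddit3, which encodes CHOP, gave 4587, 3357 and 6635 in the MCK-cre Rb-flox cultures, against 1106, 792 and 916 in the WT cultures (log2 change 2.18, SE 0.34, limma adjusted p = 0.00118). Atf3 gave 1706, 703 and 1080.2 in the MCK-cre Rb-flox cultures, against 168, 185 and 345 in the WT cultures (log2 change 1.79, SE 0.38, limma adjusted p = 0.00855). Hsp90aa1, a cytosolic chaperone, rose by 1.68 (SE 0.20). Its other MOE430A probe sets rose by 1.57 and 1.44, but its MOE430B probe set changed by -0.02. Hspa5, the chaperone BiP, did not overlap between the groups and was not called (0.55, limma adjusted p = 0.0637). Among 25 autophagy and atrophy genes, 3 were called lower (12%) and 2 higher (8%), against 4.47% and 6.99% over all genes. The lower count was 1 without L, G or I, and the higher count 1 without J, L, G, H or I. Map1lc3b, which marks autophagosomes, gave 2848, 3124 and 3617 in the MCK-cre Rb-flox cultures, against 6457, 5515 and 7528 in the WT cultures (log2 change -0.99, SE 0.20, limma adjusted p = 0.00617), whereas the lysosomal protease Ctsb gave 25072, 22758 and 20692 in the MCK-cre Rb-flox cultures, against 11538, 10064 and 6734 in the WT cultures (log2 change 1.29, SE 0.26, limma adjusted p = 0.00617).

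Matrix genes changed in single members. Of 17 collagens, 2 were called higher (11.8%) and none lower. Col3a1 gave 8811, 11414 and 4722 in the MCK-cre Rb-flox cultures, against 2821, 218 and 1077 in the WT cultures (log2 change 2.89, SE 0.58, limma adjusted p = 0.00617) and Col5a2 gave 12392, 17689 and 9251 in the MCK-cre Rb-flox cultures, against 4305, 3285 and 3698 in the WT cultures (log2 change 1.72, SE 0.24, limma adjusted p = 0.000511). A second Col3a1 probe set changed by 0.59 (limma adjusted p = 0.396 over all probe sets) and a second Col5a2 probe set by 0.80. Of 37 other matrix genes, 4 were called higher (10.8%) and 2 lower (5.41%), against 6.99% and 4.47% over all genes. Plod2, a collagen lysyl hydroxylase, gave 6222, 14081 and 7780.1 in the MCK-cre Rb-flox cultures, against 3065, 2821 and 2888 in the WT cultures (log2 change 1.55, SE 0.25, limma adjusted p = 0.00154) and Fbln1, fibulin 1, rose by 1.33 (SE 0.19). The higher count was 2 without J, L, H or I, and the lower count 1 without K, L or G.

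Fibroblast markers did not move together. Of 10 listed, 7 passed the filter, Col3a1 was called higher and S100a4 lower, and their summed signal ran from 16376 to 35857 in MCK-cre Rb-flox cultures and from 36845 to 44827 in WT cultures. Most of the WT sums was S100a4, with 12377, 14576 and 4058 in the MCK-cre Rb-flox cultures, against 28192, 28505 and 36388 in the WT cultures. The defining markers Pdgfra, Thy1 and Dcn were not called. Of 10 macrophage markers 5 passed the filter and none was called, and their summed signal was 5308 to 6808 in MCK-cre Rb-flox cultures and 4434 to 7322 in WT cultures. None of the endothelial and adipocyte markers was called, and of the 4 smooth muscle markers that passed the filter Smtn was called lower (-0.97, SE 0.21).

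The response of myotubes to Rb loss was set against that of myoblasts, Rb-null against WT, in the same limma fit. Myoblasts and myotubes also differ in cell stage, the myoblasts being proliferating cells, and in serum (fetal bovine against horse serum). Myoblast signals are not given here, so a small change in myoblasts does not mean a low signal there. The part of stage and serum in the differences below cannot be told apart here and was not tested. The difference of the Rb effects (myotubes minus myoblasts) was positive in 214 genes (1.49%) and negative in 106 (0.74%). It was positive in 16 of 45 spindle and kinetochore genes, 11 of 29 fork genes, 10 of 23 licensing genes and 9 of 24 mitotic kinase and cyclin genes. Cdk1 changed by 0.25 in myoblasts, a difference of 4.97 (SE 0.28, limma adjusted p = 2.57e-06). Top2a changed by 0.20 in myoblasts, a difference of 3.37 (SE 0.24, limma adjusted p = 1.60e-05). Ccne2 changed by 1.59 in myoblasts, and its difference of 0.85 did not pass the test (limma adjusted p = 0.253). Rb1 itself changed by -1.82 in myoblasts, a difference of -0.29 (SE 0.43) that did not pass it either.

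Among muscle genes the difference was negative for Tcap (-3.84, SE 0.49, limma adjusted p = 0.00149), Capn3 (-2.94, SE 0.49, limma adjusted p = 0.00813) and Myh8 (-2.84, SE 0.57, limma adjusted p = 0.0219). Of the 38 Z-disc genes it was negative in 2, and of the 8 myosin heavy chains in 2. It was positive in 4 of 14 MHC class I genes and 2 of 23 interferon-stimulated genes, among them B2m (2.54, limma adjusted p = 0.0402) and Ifi35 (2.91, limma adjusted p = 0.00913). Most myoblast arrays were scanned on other days than the myotube arrays, and with the scan day as a term of the fit 278 genes differed, against 320 without it.

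The calls were spread over the chromosomes. The share of tested genes called higher ran from 4.88% on chromosome 18 to 9.58% on chromosome 15, and the share called lower from 2.44% on chromosome 15 to 5.80% on chromosome 1. Among the 20 tested genes on each side of Rb1, none was called higher and 1 lower. Among the 20 on each side of H2-D1, 7 of 40 were called higher and 1 lower. The shares over all genes were 6.99% higher and 4.47% lower. The 7 include Tcf19 (2.11), a gene of the G1/S transition, and D17H6S56E-5 (3.62), both picked after their values were seen.

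Values within 1 fluidics run could be given for MOE430B. Of the 217 genes measured there and called higher, all 217 had the same sign between J and K and the WT cultures H and I of that run, and 213 did not overlap, with a median change of 1.28 against 1.27 over all MOE430B arrays. Of the 171 called lower, all 171 kept their sign and did not overlap, with a median of -1.24 against -1.30. These arrays had been used to make the calls, so sign and lack of overlap were largely fixed in advance and do not test the calls. Of all 7718 genes with a kept probe set on MOE430B, 1541 lay higher and 1496 lower without overlap in that run. For MOE430A the station could be fitted only through the myoblast cultures B and F. Unlike the other myoblasts, B shared its scan day and fluidics run with the WT myotubes. Its 18S rRNA signal was 7903, against 199 to 511 in the other myoblasts. The term may hold such traits of B beside the station, which was not tested. With it the number called higher was 508 against 785 without the term, and the number called lower 379 against 470. With the station as a term, 14 licensing genes on MOE430A were called higher against 17 without it, and 22 fork genes against 25. With the term 21 Z-disc genes were called lower against 11 without it, and 4 MHC class I genes were called higher against 10. Of the named genes, 50 lost their call with the station as a term and 12 gained one, and 81 lost it with station and scan day as terms. Besides those already given, the losses with the station include Myf6, Myh4, Myh7, Tcf12, Id2, Casq1, Psmb8, Ifitm3, Atf3, Trp53inp1, Ctsb, Plin2, Pfkp, Tpm4, Ccn1, Ccn2, Hes1, Igfbp3, S100a4, Cdkn2a and Cdkn2c. The gains include Acta1 (-1.65), Tnni1 (-2.84), Myh3 (-2.48), Myl4 (-2.80), Ryr1 (-1.56), Atp2a1 (-2.28) and Dag1 (-1.14), all lower. The term also moved the median change of all genes to 0.18.

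Where a gene had further probe sets, most moved the same way. Of 956 other probe sets of genes called higher, 851 (89.0%) had a change of the same sign, 318 were called in the same direction and 1 in the opposite one. Of 623 other probe sets of genes called lower, 537 (86.2%) had the same sign, 227 were called in the same direction and 1 in the opposite one. Among the called genes described above, a further probe set moved the other way also for Brca1 (-0.48), Tpm3 (-0.44), Camk2a (0.48), AW551984 (0.37), Id2 (-0.14), Notch2 (-0.13), Tcf12 (-0.11) and Rbpj (-0.05). A further probe set showed little change for Anln (0.50), Mcm3 (0.44), Hells (0.26), Smc2 (0.23) and Ctsb (0.01).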

How the data were processed

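The deposited values are linear intensities of single arrays, made with MAS5 per the submitters' processing notes, with no version given. From the values, every array was scaled to a mean of 1500 after removal of the lowest and highest 2% of probe sets. Array scanner records were read for fluidics station, protocol, run and scan day. The deposited intensities were put on a log2 scale after adding an offset, the 20th percentile of all values of that chip type (130 for MOE430A and 206 for MOE430B).

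Dim probe sets were dropped: 3 or more of the 12 arrays had to show a signal over that array's 40th percentile. One probe set stood for each gene, with _x_at and _s_at types only where there was no other, then MOE430A before MOE430B, then the highest mean log2 value. This gave 9143 genes from MOE430A and 5188 from MOE430B, named by the supplied chip annotation and RefSeq (GRCm38.p6). limma 3.58.1 in R 4.3.3 (lmFit, eBayes with a trend) fitted the 12 cultures with 4 group means, and Benjamini-Hochberg adjustment ran over all 14331 genes. The fit was tested on simulated data. Ratios of 3' to 5' signal were compared with exact permutation tests. Python 3.11.15, numpy 2.4.6, pandas 2.3.3 and matplotlib 3.10.9 were also used.

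Named genes are the 10 largest rises and falls among called genes without overlap, a fixed panel, and of each list up to 4 called members at each end and up to 2 bright members not called. The E2F family and the defining cell type markers are given beyond that rule, as are Eif2s3y, Tcf19 and D17H6S56E-5, which were chosen after their values were seen. The members and the 45 lists, with 1031 genes of which 875 were tested, 62 had no probe set of their own and 94 failed the filter, were chosen with earlier results of these data known, so nothing here is independent of them. Alternatives were normalization, offset, filter, probe set choice, chip-wise fits, array weights, trend, scan day, the samples fitted and each culture left out. Fluidics station and the MOE430B probe sets were added after seeing the data. Array number limits the precision of every value.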

Additional observations from a re-analysis of the deposited data

Results flagged for a closer look

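The following genes changed differently in myotubes than in myoblasts when Rb was lost, by the test of the difference itself in limma (MCK-cre Rb-flox minus WT myotubes, less Rb-null minus WT myoblasts, adjusted over all genes). All belong to the largest rises and falls described above, which were chosen by their change in myotubes, so a difference of the same sign was favoured by that choice. No explanation was tested.

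Among the rises, Cdk1 differed by 4.97 (SE 0.28, adjusted p = 2.57e-06) and Mcm6 by 4.03 (SE 0.35, adjusted p = 0.000103). Ube2c differed by 3.66 (adjusted p = 1.83e-05), Topbp1 by 3.58 (adjusted p = 0.000138) and Pole by 3.30 (adjusted p = 0.000324). The helicase genes Mcm3 and Mcm2, which changed by 1.2 and 0.82 in myoblasts, differed by 3.10 and 3.05 (adjusted p = 0.000401 and 1.42e-05). Lpl and Sct changed by -0.70 and -0.52 in myoblasts and differed by 4.69 and 4.26 (SE 0.503 and 0.675, adjusted p = 0.000401 and 0.00538). The changes in myoblasts are given here without a test of their own.

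Among the falls, Myh2 differed by -5.12 (SE 0.85, adjusted p = 0.00738) and Car3, which changed by -1.64 in myoblasts, by -3.72 (adjusted p = 0.00295). Sln differed by -4.38 (adjusted p = 0.0222), Ablim3 by -3.95 (adjusted p = 0.0483) and Cdc42ep2 by -2.76 (adjusted p = 0.0297). Ramp1, Cilp and Cd36 changed by 0.93, 0.23 and 0.29 in myoblasts and differed by -4.65, -3.79 and -3.81 (adjusted p = 0.000528, 0.0348 and 0.00745).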

How the results depend on the processing

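No paired analysis was possible because no culture letter occurs in more than 1 group. In the fit of the 6 myotube cultures alone, 594 genes were called higher and 426 lower, of which 587 and 391 are among the 1002 and 641. With every kept probe set tested on its own, 1585 probe sets were called higher and 1038 lower. With 1 culture left out the counts ranged from 700 to 974 (higher), 406 to 550 (lower), 5193 to 5773 (genes without overlap, against 3997 with 3 cultures a group) and 224 to 328 (difference of the Rb effects). With array weights 723 genes differed between the Rb effects, against 320. On MOE430A, 508 genes were called higher with the fluidics station as a term and 215 with station and scan day, against 785, and 163 were called lower with both terms, against 470. The station term is estimated only through the myoblast arrays, and the cause of the moves was not tested. The lower count was 422 without WT culture G and 406 without WT culture I, and the other planned settings left these counts within 1.5 times.

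Of 248 named genes, 156 were called, and 104 of these calls were kept in every planned setting and with each culture left out. With the fluidics station as a term 50 named genes lost their call and 12 gained one, and with station and scan day 81 lost it. Among called named genes, signs turned for Anxa6 (0.23), Gabarapl2 (0.56), Hsp90aa1 (-0.0215) and Mcm6 (-0.63) with the MOE430B probe set, for Hspa8 (0.13) with station and scan day as terms, and for Myof (-0.0142) with no filter. The median of all genes was -0.05 with median centring, against 0.01. Of 817 alternative list medians, 746 moved by less than the spread between cultures, and 39, in 15 lists, changed sign. Genes near the offset in 1 group have understated changes.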

Other observations

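Among the named genes, 5 are given here that were picked after their values were seen, for a wide spread among the MCK-cre Rb-flox cultures. Fgf21, a secreted stress hormone, gave 31048, 205 and 24277 in the MCK-cre Rb-flox cultures, against 2733, 1084 and 1497 in the WT cultures, so that J and L were the highest of the 6 cultures and K the lowest. It was not called (log2 change 1.83, SE 1.30, limma adjusted p = 0.440).

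Asns, asparagine synthetase, gave 22833, 6642 and 25657 in the MCK-cre Rb-flox cultures, against 9637, 17404 and 11687 in the WT cultures, and was not called (log2 change 0.33, limma adjusted p = 0.718). Atp1b1, a subunit of the sodium pump, gave 5596, 1233 and 6219.8 in the MCK-cre Rb-flox cultures, against 3362, 3691 and 2675 in the WT cultures, and was not called (log2 change 0.14, limma adjusted p = 0.919). In both genes K was the lowest of the 6 cultures and J and L the highest. Kcnc1, a potassium channel, gave 1381, 131 and 981 in the MCK-cre Rb-flox cultures, against 1632, 1969 and 1622 in the WT cultures, with K far below J and L and no overlap between the groups (log2 change -1.29, limma adjusted p = 0.126, not called). Tagln, a gene of smooth muscle and stress fibres, gave 1485, 5760.4 and 779.6 in the MCK-cre Rb-flox cultures, against 2123, 463 and 769 in the WT cultures, with K above every other culture (log2 change 0.95, limma adjusted p = 0.502, not called).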
